A study of Mus musculus with 6 samples.

Results

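The genes described here are the LXR receptors and the genes of cholesterol efflux and its immediate surroundings: Nr1h2, Nr1h3, Abca1, Abcg1, Scarb1, Soat1, Mylip, Ch25h and Cyp27a1. They were chosen by symbol as the counterpart of sterol synthesis, and all 9 were found among the 18341 genes of the deposited table. The table holds RNA-seq values of monocytes sorted from subcutaneous tumours in C57BL/6 mice, 13 days after injection of tumour cells. In the BAFF tumour group (3 libraries) the injected cells overexpressed BAFF, the B cell activating factor, and in the control tumour group (3 libraries) they were control cells; every host was C57BL/6 and every sample carries B16.F10, a pigmented mouse melanoma line, as its source label. The labels give no vector, clone number, host age or sex, and do not tell whether each library is a mouse of its own, so p-values measure only the spread between these samples. The question put to these genes is whether monocytes differ in their sterol export programme when the tumour overexpresses BAFF.

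Liver X receptors are nuclear receptors that bind oxysterols, the oxidised derivatives of cholesterol, and act as heterodimers with a retinoid X receptor. In macrophages they turn on genes that move cholesterol out of the cell when sterol accumulates, while the transcription factor SREBP2 turns on synthesis and uptake when sterol is short. The LXR heterodimer is known to bind a direct repeat of a hormone response half-site, and the Abca1 promoter holds a well-known one.

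Promoter windows of 7 of the 9 genes were in the RefSeq table (build GRCm38.p6, 250 bases before to 50 after a start site, 8 windows). Abcg1 and Scarb1 had no window, so their promoters were not searched. Those of 3 genes are printed 5′ to 3′ on the gene's own strand: Abca1 because it is the standard LXR target, Soat1 because it was the gene of this list with the largest positive fold change, and Ch25h because it had the largest negative one. Capitals mark the E-box (CACGTG) and the LXR-type repeat in Abca1 (minus strand, chr4:53159846-53160145), a GC box (GGGCGG) in Soat1 (minus strand, chr1:156474279-156474578) and a cyclic AMP response element (TGACGTCA) in Ch25h (minus strand, chr19:34475099-34475398).
Abca1: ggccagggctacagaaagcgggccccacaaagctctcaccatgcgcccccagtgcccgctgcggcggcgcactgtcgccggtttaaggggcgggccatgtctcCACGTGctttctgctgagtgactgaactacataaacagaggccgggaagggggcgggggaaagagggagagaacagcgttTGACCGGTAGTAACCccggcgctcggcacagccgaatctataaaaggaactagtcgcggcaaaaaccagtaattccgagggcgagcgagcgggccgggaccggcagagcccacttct
Soat1: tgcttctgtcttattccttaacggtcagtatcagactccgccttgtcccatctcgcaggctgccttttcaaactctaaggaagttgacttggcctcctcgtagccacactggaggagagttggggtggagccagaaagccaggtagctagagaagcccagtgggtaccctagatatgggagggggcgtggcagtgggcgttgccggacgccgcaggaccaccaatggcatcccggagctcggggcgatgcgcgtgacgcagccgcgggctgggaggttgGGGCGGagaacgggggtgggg
Ch25h: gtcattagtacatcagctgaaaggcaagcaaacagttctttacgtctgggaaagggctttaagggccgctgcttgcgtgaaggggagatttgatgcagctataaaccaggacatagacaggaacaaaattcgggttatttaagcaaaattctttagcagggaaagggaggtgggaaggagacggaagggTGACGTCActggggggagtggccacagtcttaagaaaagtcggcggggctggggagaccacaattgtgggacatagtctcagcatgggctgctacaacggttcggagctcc
The LXR-type repeat was searched as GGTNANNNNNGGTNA on both strands, and 0.718% of the 32851 windows of the same length held it. Of the 7 genes with a window, Abca1 alone had a match, on the reverse strand, beginning 67 bases before the start site and overlapping none of the other motifs. The E-box stood in 7.15% of all windows and, of these 7 genes, in Abca1 alone. The cyclic AMP element stood in 1.79% of all windows and, of these 7 genes, in Ch25h alone. The GC box stood in 35.7% of all windows and in 4 of the 8 windows of the list, those of Abca1, Cyp27a1, Mylip and Soat1. A match describes the letters of the window and not a bound site.

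Values are CPM, reads scaled to a common library total, as the authors deposited them. From the step between low values, that total was estimated (in 1e+06 reads) at 9.65, 27.6 and 10.1 in BAFF tumour libraries 1, 2 and 3 and at 27.3, 7.12 and 4.72 in control tumour libraries 1, 2 and 3. The listed genes held 61.1% to 66.1% of it in BAFF tumour libraries and 65.6%, 50.2% and 39.8% in control tumours 1, 2 and 3. Over the 12824 genes tested the median log2 fold change, BAFF tumour over control tumour, was 0.23 on the deposited scale and 0.01 after median-of-ratios size factors (RLE), which bring the middle gene of each library to a common level. Both scales are given below, with log2 fold changes on log2(CPM + 1). Monocyte and myeloid genes were abundant: Ly6c2 stood at 175 to 258 CPM in BAFF tumour libraries and 92.5 to 204 CPM in controls, and the 6 myeloid markers summed to 8532 to 9991 CPM and 4798 to 8931 CPM. Defining genes of other cell types were also present. The 9 melanoma markers summed to 321 to 573 CPM in BAFF tumour libraries against 647 to 1184.5 CPM in controls, with 7 of 9 called lower on either scale. Most of that sum in BAFF tumours was Gpnmb, at 244 to 412 CPM against 251 to 502 CPM in controls. Gpnmb was not called on either scale. Of the 7 called, Dct had the smallest unadjusted p and averaged 47.8 ± 14.8 CPM in BAFF tumours and 202 ± 54.4 CPM in controls. The 10 macrophage markers summed to 1961 to 2264 CPM in BAFF tumours and 1890 to 4022 CPM in controls, with 2 of 9 tested called lower. After RLE the macrophage sums were 1834 to 2120 CPM in BAFF tumours and 2820 to 3174 CPM in controls, which did not overlap. Of the other lists, 7 Ly6C-high monocyte markers (3 called higher on the deposited scale and 5 after RLE) summed to 2810 to 2915 CPM in BAFF tumours and 1432 to 2746 CPM in controls, and 6 neutrophil markers (3 and 2 called higher) to 174 to 228 and 87.4 to 191 CPM. Camp and Ly6g, also on the neutrophil list, were not among the deposited genes. Csf3r held 70.1 to 102 CPM of the neutrophil sum in BAFF tumours and 36.0 to 81.8 CPM in controls. Markers of dendritic cells summed to 22.1 to 25.0 CPM in BAFF tumours and 13.8 to 30.6 CPM in controls (1 of 6 called higher), those of stroma and endothelium to 53.4 to 79.8 and 36.0 to 182 CPM (of 7, none called on the deposited scale, 2 higher and 1 lower after RLE), those of T and NK cells to 6.13 to 12.1 and 5.34 to 15.6 CPM, and those of B cells to 1.92 to 2.38 and 1.06 to 4.06 CPM (none called of the 3 T and NK cell genes and 1 B cell gene tested). In bulk samples, fewer cells of a type and less RNA per cell cannot be told apart. The part of these cell mixtures in the results below was not tested.

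On the deposited scale none of the 9 genes passed limma's test at an adjusted p under 0.05, against 5.31% of all tested genes (1.81% as higher and 3.5% as lower), and 1 of them, Ch25h, had an unadjusted p under 0.05, as had 2053 of the 12824 genes. After RLE, Soat1 alone passed, as higher in BAFF tumours, where 7.18% of all genes passed as higher, 9.91% as lower and 17.1% in either direction; Soat1, Ch25h and Abca1, 3 of the 9, had an unadjusted p under 0.05, as had 3919 of all genes. The median log2 fold change over the 9 was 0.37 on the deposited scale and 0.12 after RLE, beside 0.23 and 0.01 for all genes tested. The groups did not overlap for 1 of the 9 genes on the deposited scale (18% of all genes) and for 4 of the 9 after RLE (35.2%). In each of these the BAFF tumour libraries were the higher ones, which held for 11.4% of all genes on the deposited scale and 17.3% after RLE. Control tumour 3, the shallowest library, had the lowest deposited value for 6 of the 9 genes and control tumour 1 the highest for 4. Without control tumour 1, 7 of the 9 passed on the deposited scale, 6 as higher and Ch25h as lower, in a fit where 4615 of 12591 genes passed as higher and the median of all genes was 0.44; the same fit after RLE called none of the 9.

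**Figure D1:**
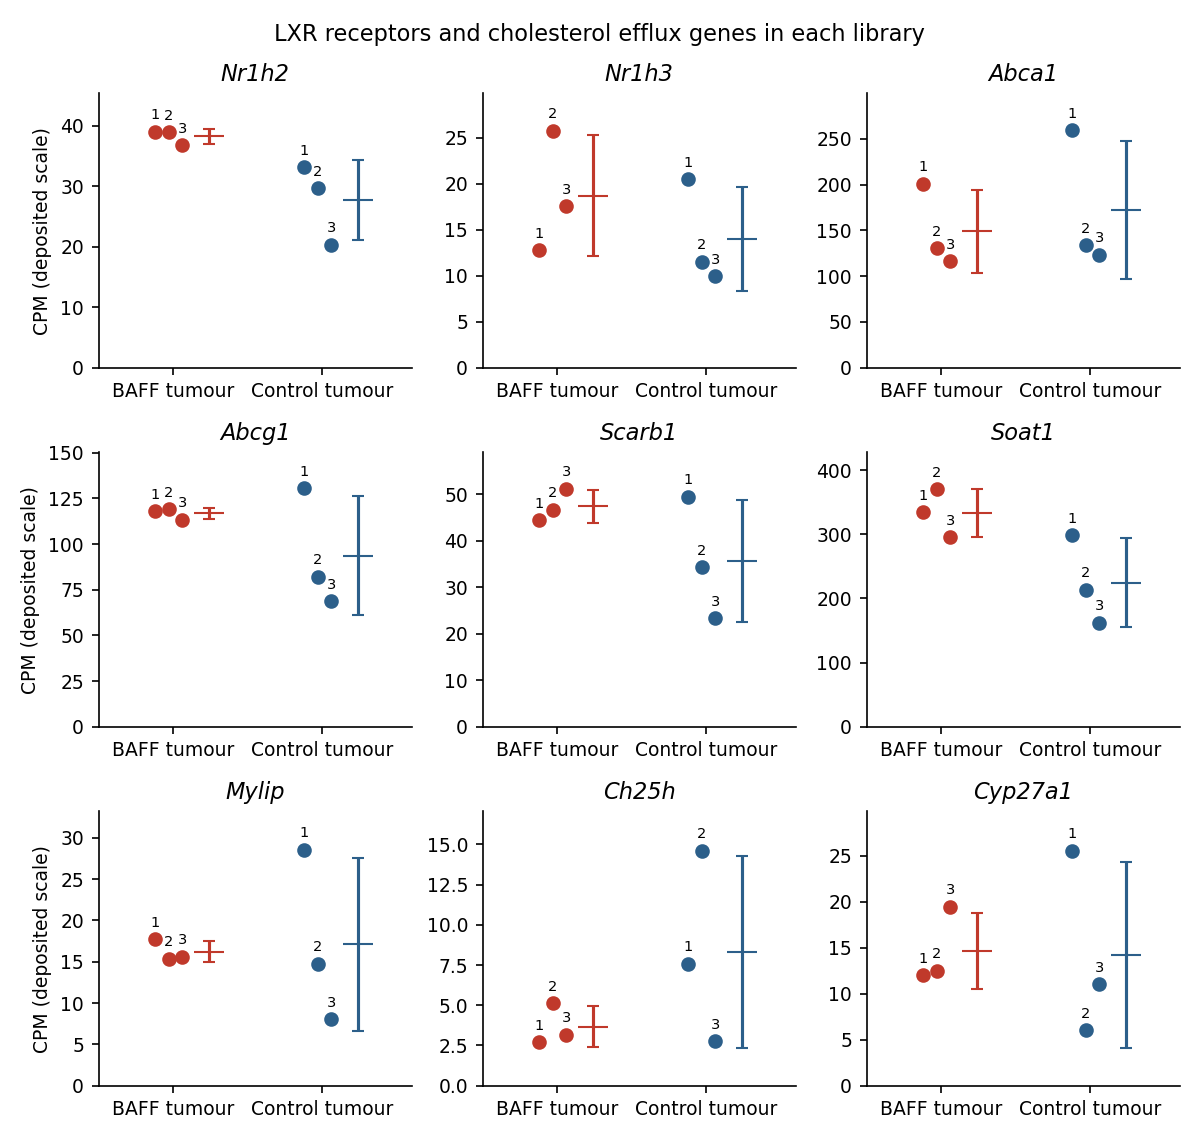
CPM on the deposited scale (vertical axes, each from 0) of the 9 genes, 1 panel a gene, in BAFF tumour libraries (red, left) and control tumour libraries (blue, right). Points are libraries with their replicate number, and the bar beside them is the mean with its SD (n = 3 each); Nr1h2 is the gene whose groups do not overlap, and the control libraries spread more widely than the BAFF tumour libraries for all genes but Nr1h3.

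The LXR receptors were transcribed in every library. Nr1h2 encodes LXRβ, the broadly expressed receptor, and had 39.0, 38.9 and 36.7 CPM in BAFF tumours 1, 2 and 3, against 33.1, 29.6 and 20.3 CPM in control tumours 1, 2 and 3. Every BAFF tumour library lay above every control library, and control tumour 3 was the lowest. The log2 fold change was 0.48 ± 0.32 (SE; limma adjusted p = 0.471) on the deposited scale and 0.23 ± 0.11 (adjusted p = 0.187) after RLE. The groups stayed apart after RLE, at 34.1 to 36.5 and 26.1 to 32.8 CPM, and the 95% interval of the log2 fold change ran from -0.01 to 0.48.

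Nr1h3 encodes LXRα, the receptor that rises as monocytes become macrophages. It had 12.7, 25.7 and 17.6 CPM in BAFF tumours 1, 2 and 3, against 20.5, 11.5 and 9.95 CPM in control tumours 1, 2 and 3. The groups overlapped, with the deepest library of each group, BAFF tumour 2 and control tumour 1, the highest of its group. In limma its log2 fold change was 0.41 ± 0.32 (SE; limma adjusted p = 0.546) and 0.17 ± 0.19 after RLE (adjusted p = 0.601). Within a library, which removes the library scale, Nr1h3 stood at 0.327, 0.661 and 0.478 times the CPM of Nr1h2 in BAFF tumours and at 0.618, 0.389 and 0.490 times in controls. The ratio had a mean of 0.489 ± 0.167 in BAFF tumours and 0.499 ± 0.115 in controls (SD, n = 3 each), a difference smaller than the spread between libraries.

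The efflux transporters include Abca1 and Abcg1, by CPM the most abundant genes of the list after Soat1. Abca1, which loads cellular cholesterol and phospholipid onto lipid-poor apolipoprotein A-I, had 201, 130 and 116 CPM in BAFF tumours 1, 2 and 3, against 259, 134 and 123 CPM in control tumours 1, 2 and 3. Library 1 of each group was its highest, and the groups overlapped. The fitted log2 fold change was -0.16 ± 0.32 (SE; limma adjusted p = 0.805) on the deposited scale and -0.42 ± 0.19 after RLE (adjusted p = 0.156). After RLE, Abca1 had 188, 114 and 109 CPM in BAFF tumours 1, 2 and 3, against 205, 148 and 184 CPM in controls. BAFF tumour 1 was within the control range and the other 2 BAFF tumour libraries were below it. Without BAFF tumour 1, Abca1 passed as lower after RLE (log2 fold change -0.66, limma adjusted p = 0.0106), as did 969 of 12845 genes. The other fits after RLE that left out a library missed it (limma adjusted p 0.0967 to 0.413). The 4 libraries of lower depth missed it too (limma adjusted p = 0.634).

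Abcg1 exports cholesterol to mature high-density lipoprotein. It had 118, 119 and 113 CPM in BAFF tumours 1, 2 and 3, against 131, 82.0 and 68.6 CPM in control tumours 1, 2 and 3. The BAFF tumour libraries lay close to each other and inside the control range. After RLE the libraries drew together, at 104 to 110 CPM in BAFF tumours and 90.7 to 103 CPM in controls, which did not overlap. The log2 fold change was 0.37 ± 0.32 (SE; limma adjusted p = 0.585) on the deposited scale and 0.12 ± 0.09 after RLE (adjusted p = 0.447). The 95% interval after RLE, from 0.940-fold to 1.25-fold, was the narrowest of the 9 genes. Abca1 stood at 1.70, 1.10 and 1.02 times the CPM of Abcg1 in BAFF tumours 1, 2 and 3, against 1.99, 1.63 and 1.80 times in controls, and BAFF tumour 1 again overlapped the controls.

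Scarb1 encodes SR-BI, a receptor that exchanges cholesterol with high-density lipoprotein. It had 44.4, 46.6 and 51.2 CPM in BAFF tumours 1, 2 and 3, against 49.4, 34.3 and 23.3 CPM in control tumours 1, 2 and 3. The groups overlapped through control tumour 1 on the deposited scale. They did not overlap after RLE, at 40.9 to 48.0 CPM in BAFF tumours and 34.7 to 39.0 CPM in controls. In limma its log2 fold change was 0.46 ± 0.32 (SE; limma adjusted p = 0.487) and 0.22 ± 0.11 after RLE (adjusted p = 0.196).

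**Figure D2:**
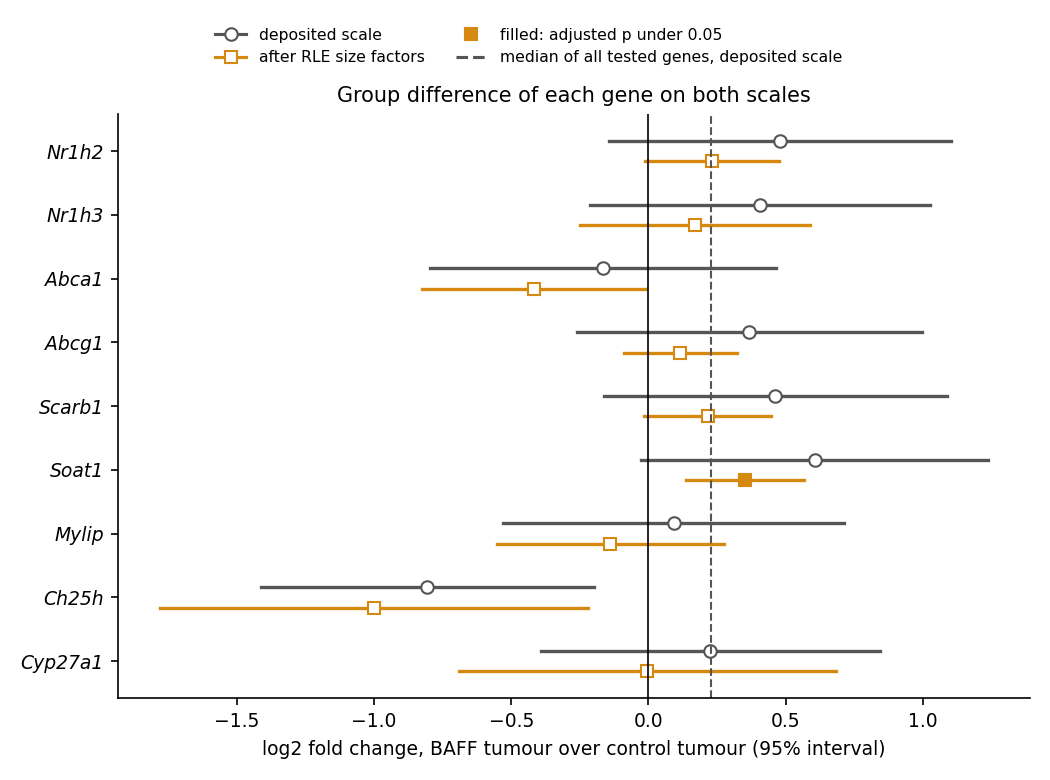
Log2 fold change, BAFF tumour over control tumour, with its 95% interval from limma (horizontal axis) for each of the 9 genes (rows), on the deposited scale (circles) and after RLE size factors (squares). Filled marks have an adjusted p under 0.05, which is Soat1 after RLE alone, and the dashed line is the median of all tested genes on the deposited scale (0.23).

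Soat1 encodes the enzyme that esterifies free cholesterol for storage in lipid droplets, the fate opposite to export. It was the most abundant gene of the list, with 334, 370 and 295 CPM in BAFF tumours 1, 2 and 3, against 299, 213 and 162 CPM in control tumours 1, 2 and 3. BAFF tumour 3 and control tumour 1 met at almost the same value, and the other libraries were apart. On the deposited scale the log2 fold change was 0.61 ± 0.32 (SE; limma adjusted p = 0.341). After RLE, Soat1 had 313, 324 and 277 CPM in BAFF tumours 1, 2 and 3, against 236, 236 and 242 CPM in controls. All BAFF tumour libraries were above all controls, and the controls lay close together. The log2 fold change after RLE was 0.35 ± 0.10 (SE; limma adjusted p = 0.0286), a 1.28-fold higher level with a 95% interval from 1.10-fold to 1.48-fold. The call was missed in 5 of the 6 fits that left out a library (limma adjusted p 0.0632 to 0.108). It was kept in the one without BAFF tumour 3 (adjusted p = 0.0157). The 4 libraries of lower depth (adjusted p = 0.197) and the fit with upper-quartile factors (adjusted p = 0.0561) missed it too.

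Set against each other within a library, Abca1 stood at 0.600, 0.352 and 0.393 times the CPM of Soat1 in BAFF tumours 1, 2 and 3, against 0.868, 0.628 and 0.761 times in controls. This was the 1 of the 3 ratios described here whose groups did not overlap, with a mean of 0.448 ± 0.133 in BAFF tumours and 0.752 ± 0.121 in controls (SD, n = 3 each). It was 0.585-fold in BAFF tumours relative to controls, by geometric means. Of the other 12823 genes tested, 45.5% also had a ratio to Soat1 that was lower in every BAFF tumour library than in every control library, so the separation was common to much of the table.

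**Figure D3:**
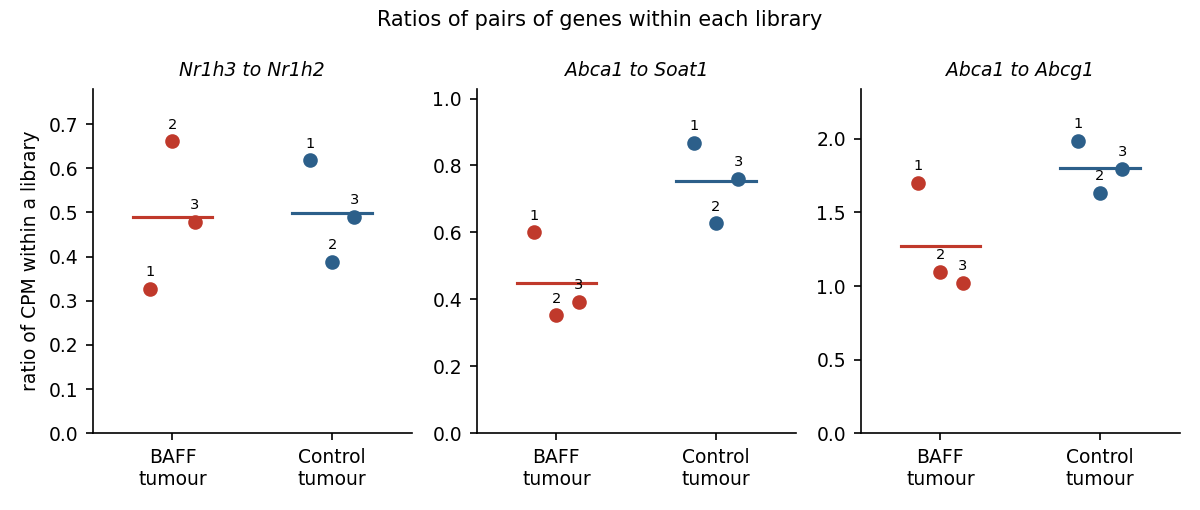
Ratio of the CPM of 2 genes within each library (vertical axes, each from 0) for 3 pairs, 1 panel a pair, in BAFF tumour libraries (red, left) and control tumour libraries (blue, right), with replicate numbers at the points and a line at the group mean. The ratio of Abca1 to Soat1 is the pair without overlap, at 0.352 to 0.600 in BAFF tumours and 0.628 to 0.868 in controls.

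Mylip encodes IDOL, a ubiquitin ligase that removes the LDL receptor from the cell surface and is induced by LXR. It had 17.7, 15.4 and 15.6 CPM in BAFF tumours 1, 2 and 3, against 28.5, 14.7 and 8.04 CPM in control tumours 1, 2 and 3. The BAFF tumour libraries lay close together inside the control range. The fitted log2 fold change was 0.09 ± 0.32 (SE; limma adjusted p = 0.896) on the deposited scale and -0.14 ± 0.19 after RLE (adjusted p = 0.672), so its sign depended on the scale and no direction is given.

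The oxysterol-forming enzymes were the least abundant genes of the list by CPM together with Mylip and Nr1h3. Ch25h, an interferon-inducible enzyme that hydroxylates cholesterol on its side chain, had 2.70, 5.11 and 3.16 CPM in BAFF tumours 1, 2 and 3, against 7.57, 14.6 and 2.75 CPM in control tumours 1, 2 and 3. Control tumour 3 was as low as the BAFF tumour libraries and rested on 13 estimated reads, while control tumours 1 and 2 stood above all BAFF tumour libraries. This was the lowest depth of the list, with 26, 141 and 32 reads in BAFF tumours 1, 2 and 3 and 207, 104 and 13 in the controls. The log2 fold change was -0.81 ± 0.31 (SE; limma adjusted p = 0.116) on the deposited scale and -1.0 ± 0.36 after RLE (adjusted p = 0.0791), with unadjusted p of 0.00939 and 0.0165. Neither passed. On the deposited scale the SE and p reflect the spread of genes of this level, not that of Ch25h. The SD of Ch25h within groups was 0.778 in log2 on that scale. After RLE the limma adjusted p was 0.193 with robust empirical Bayes and 0.0190 with the replicate number as a block. Without control tumour 3, Ch25h passed as lower on the deposited scale (log2 fold change -1.35, limma adjusted p = 1.7e-05) and after RLE (-1.38, adjusted p = 0.0178), while without control tumour 2 the values were -0.32 (adjusted p = 0.860) and -0.50 (adjusted p = 0.207). In GENCODE M21, 11.5% of the exonic bases of Ch25h lie in an exon of Gm26902, and without strand those reads cannot be assigned to either gene.

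Cyp27a1, a mitochondrial enzyme that makes another side-chain oxysterol, had 12.0, 12.5 and 19.4 CPM in BAFF tumours 1, 2 and 3, against 25.5, 6.04 and 11.0 CPM in control tumours 1, 2 and 3. The control libraries held both the highest and the lowest value. In limma its log2 fold change was 0.23 ± 0.32 (SE; limma adjusted p = 0.729), close to the median of all genes (0.23), and 0.00 after RLE (adjusted p = 0.996), with a 95% interval after RLE from 0.619-fold to 1.61-fold. Of 5 tested partners of these enzymes, none passed on the deposited scale (1 had an unadjusted p under 0.05) and 1, Gpr183, passed as higher after RLE. Gpr183 encodes EBI2, the receptor for a dihydroxylated oxysterol made from the Ch25h product, and averaged 21.5 ± 2.3 CPM in BAFF tumours and 11.8 ± 5.0 CPM in controls (SD, n = 3 each). Its groups did not overlap, with a log2 fold change of 0.87 ± 0.32 (limma adjusted p = 0.0876) and 0.63 ± 0.14 after RLE (adjusted p = 0.00806), and the call after RLE held in all 6 fits that left out a library but was missed in the 4 libraries of lower depth (adjusted p = 0.0526). Hsd3b7 (log2 fold change 0.10 after RLE), Fdxr (0.27) and Cyp39a1 (0.11) did not pass, and Cyp7b1 and Sult2b1 were below the level tested.

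Per kilobase of exon, which allows genes to be compared within a library, Soat1 came first in both groups, at 34.1 ± 3.8 CPM per kb in BAFF tumours and 22.9 ± 7.1 CPM per kb in controls (SD, n = 3 each). In BAFF tumours Abcg1 (16 ± 0.41), Abca1 (14.4 ± 4.4) and Nr1h2 (11.4 ± 0.38 CPM per kb) followed, then Nr1h3 (7.43), Cyp27a1 (6.74), Scarb1 (5.58), Mylip (5.02) and Ch25h (2.64 CPM per kb). Neighbours in this order had separate ranges between Soat1 and Abcg1, between Nr1h2 and Nr1h3 and between Mylip and Ch25h, and overlapped elsewhere. In controls Abca1 (16.6 ± 7.3 CPM per kb) came before Abcg1 (12.8 ± 4.5 CPM per kb) and Ch25h was the sixth, but the ranges of all neighbours overlapped. These ranges run over libraries and include the library scale. Within each control library Soat1 was above Abca1, Abca1 above Abcg1 and Abcg1 above Nr1h2. Within each BAFF tumour library Abca1 was above Nr1h2, and above Abcg1 in BAFF tumour 1 alone. The lengths are those of all GENCODE M21 exons of a gene, which the authors' counting may not share.

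Other genes that LXR is known to control moved in both directions. Of 14 such genes 13 were tested, and on the deposited scale 1 passed as higher and 2 as lower, and the median log2 fold change was 0.10. After RLE 2 passed as higher (Apoc2 and Arl4c), 4 as lower (Pltp, Cd5l, Scd1 and Lpl) and 7 did not pass, and the median was -0.15. Pltp, the phospholipid transfer protein, had 13.5, 12.1 and 17.9 CPM in BAFF tumours 1, 2 and 3, against 64.3, 17.6 and 26.9 CPM in controls, and fell by 1.08 ± 0.32 on the log2 scale (SE; limma adjusted p = 0.0187) and by 1.32 ± 0.28 after RLE (adjusted p = 0.00682). BAFF tumour 3 and control tumour 2 met on the deposited scale. Cd5l, a secreted macrophage protein, averaged 1.85 ± 0.21 CPM in BAFF tumours and 5.27 ± 3.6 CPM in controls (log2 fold change -1.0 ± 0.31, adjusted p = 0.0262), without overlap. Apoc2, the cofactor of lipoprotein lipase, averaged 18.4 ± 3.4 and 8.96 ± 2.9 CPM (log2 fold change 0.99 ± 0.32, adjusted p = 0.0375), also without overlap. Scd1, a fatty acid desaturase, averaged 2.21 ± 0.24 and 5.15 ± 1.9 CPM and passed after RLE alone (-1.07 ± 0.20, adjusted p = 0.00348). After RLE the calls of Pltp, Cd5l, Apoc2, Scd1 and Arl4c held in all 6 fits that left out a library, and that of Lpl in 2; on the deposited scale the calls of Pltp, Cd5l and Apoc2 were lost whenever a BAFF tumour library was left out, and also without control tumour 1 for Cd5l and control tumour 2 for Apoc2. In the 4 libraries of lower depth after RLE, Apoc2 (adjusted p = 0.0375), Arl4c (0.0177) and Scd1 (0.0315) passed, and Pltp (0.0924), Cd5l (0.0713) and Lpl (0.0684) did not. Pltp also missed after RLE with robust empirical Bayes (adjusted p = 0.068). Macrophage markers were lower in the same libraries after RLE (6 of 9 tested called lower, 1 higher; on the deposited scale 2 lower and none higher); their part in the lower values of Pltp and Cd5l was not tested. Apoe, the most abundant of these targets, averaged 597 ± 101 and 701 ± 381 CPM (limma adjusted p = 0.875), and Srebf1, the lipogenic factor downstream of LXR, averaged 44.6 ± 1.9 and 32.8 ± 5.8 CPM (adjusted p = 0.506). Apoe, Lpl, Arl4c and Srebf1 lie outside the rule for named genes; they were picked with their values in view.

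Partners and coregulators of LXR are read against the 5.31% (deposited scale) and 17.1% (RLE) of all genes that passed. Of 11 such genes 10 were tested, none was called on the deposited scale (1 had an unadjusted p under 0.05), and after RLE 1 passed as higher, Tbl1xr1, and 1 as lower. Tbl1xr1, a subunit of corepressor complexes, averaged 99.8 ± 4.8 CPM in BAFF tumours and 68.3 ± 28.9 CPM in controls (log2 fold change after RLE 0.37 ± 0.11, limma adjusted p = 0.0317). Sirt1, a deacetylase that acts on LXR, averaged 27.6 ± 2.2 and 19.1 ± 9.4 CPM, and the coactivator gene Ncoa1 averaged 41.1 ± 8.1 and 33.8 ± 16.1 CPM; neither passed on either scale. Of the 6 fits after RLE that left out a library, the call of Tbl1xr1 held in the one without control tumour 1; it also held in the 4 libraries of lower depth (adjusted p = 0.0391).

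Sterol synthesis and SREBP2 genes are the counterpart of efflux. Of 25 tested genes 4 passed as higher on the deposited scale and 11 after RLE, none as lower, with medians of 0.65 and 0.42. Of all tested genes 1.81% and 7.18% passed as higher. Pmvk (log2 fold change 1.08 ± 0.32, limma adjusted p = 0.0183), Fdps (1.07 ± 0.32, adjusted p = 0.0207), Msmo1 (1.03 ± 0.32, adjusted p = 0.0288) and Cyp51 (0.98 ± 0.32, adjusted p = 0.0430), all enzymes of the mevalonate and sterol steps, were the genes called on the deposited scale. That count was 0 without BAFF tumour 1, 2 or 3 or control tumour 2, 18 without control tumour 1 and 6 without control tumour 3. After RLE it was 7 to 10 in the 6 fits that left out a library (1 other gene passed as lower without BAFF tumour 3), and 2 in the 4 libraries of lower depth. The calls of Pmvk, Fdps, Msmo1 and Cyp51 after RLE held in all 6 fits that left out a library. The difference between this list and the 9 LXR and efflux genes was not tested.

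**Figure D4:**
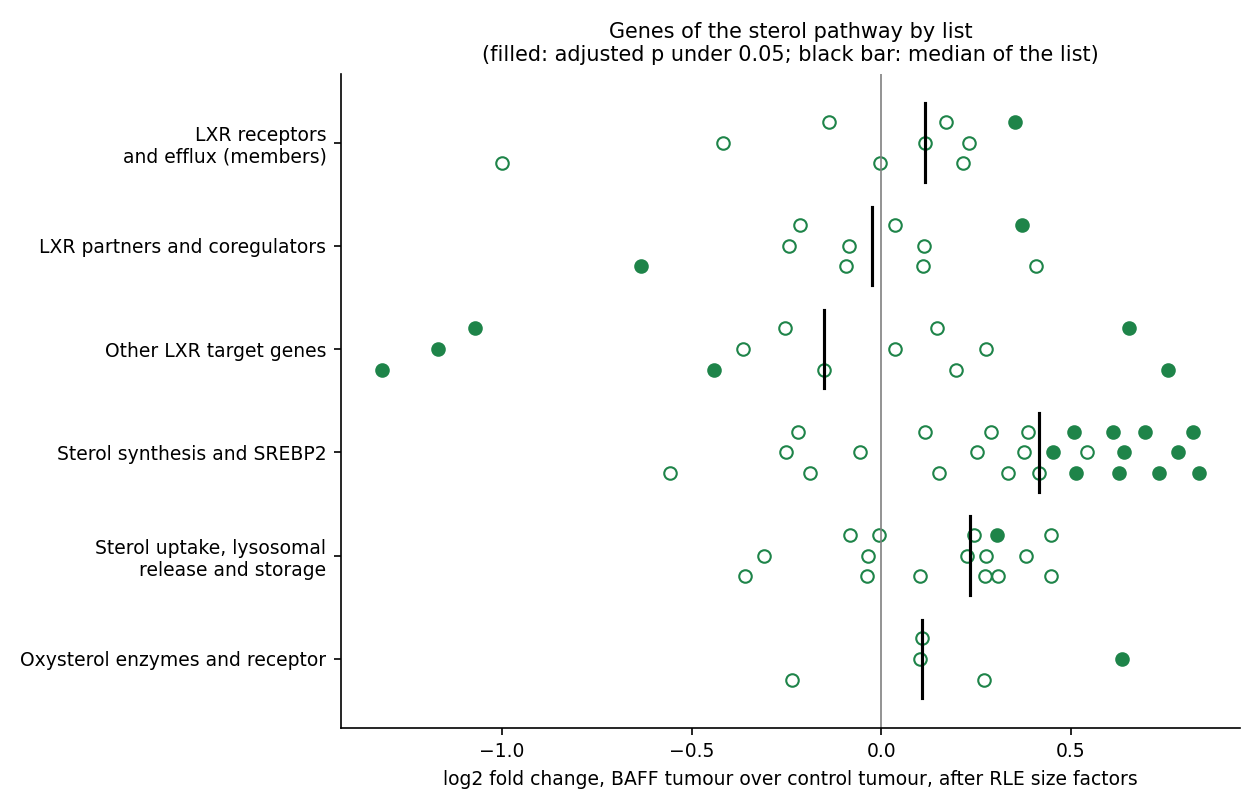
Log2 fold change after RLE size factors, BAFF tumour over control tumour (horizontal axis), of each tested gene of 6 lists (rows), filled where the adjusted p is under 0.05, with a black bar at the median of the list. The 9 LXR and efflux genes spread on either side of 0 with a median of 0.12, and the sterol synthesis genes have a median of 0.42.

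The genes whose levels ran most like those of Abca1, Abcg1 and Nr1h3 were sought on the deposited scale, among 9095 genes averaging at least 5 CPM. The measure was the root mean square difference of centred log2(CPM + 1) over the 6 libraries. It includes the library scale, which genes share: the SD of Abcg1 within groups was 0.337 in log2 on this scale and 0.078 after RLE. Likeness here is therefore no measure of shared regulation. They were Pam, Pde4d and Itga6 for Abca1 (differences of 0.122, 0.126 and 0.131), Purb, Slain2 and Man1a2 for Abcg1 (0.0240, 0.0281 and 0.0315), and Slc2a6, Tor1b and Chml for Nr1h3 (0.12, 0.129 and 0.137). The median difference to all these genes was 0.404 for Abca1, 0.189 for Abcg1 and 0.329 for Nr1h3, the smallest of the 3 for Abcg1.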

How the data were processed

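Libraries of 6 samples (3 per group) came from a TruSeq v2 kit, which keeps no strand, per the labels' protocols. Of tools, Partek, Bowtie2 2.2.5 and STAR 2.4.1d are listed, with no role, per the submitters' processing notes. How reads were assigned to genes, on which build and annotation, is not given in the sources used here. The authors deposited 1 table in CPM, a unit recognised from its values: in each library 85.7% to 87.0% of low values were whole multiples of its smallest step, within 0.02. The reads of a gene could only be estimated from that step, so no count model was used. A control column lacking a letter was matched to control tumour 2. By these estimated reads, no replicates agreed within sampling noise (smallest chi-square per degree of freedom 8.12).

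The genes averaging at least 1 CPM were tested with limma-trend (limma 3.58.1, R 4.3.3) on log2(CPM + 1), with Benjamini-Hochberg adjustment over all 12824 and a threshold of 0.05. The pseudocount understates changes of low genes. On the deposited scale the prior degrees of freedom were infinite, so a gene's SE there reflects the spread of genes of its level, not its own. The same test was repeated after RLE size factors (0.670 to 1.27). Errors are SD for levels and SE for fold changes. Intervals cover the spread between libraries; the read numbers behind low genes are estimates.

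The members and the 14 other lists were chosen with earlier results of these data known, so lists are described by counts and medians and not tested. Named genes were all members, the 4 genes with the smallest unadjusted p of each list and the most abundant marker. Genes of marker lists are given as sums, apart from Ly6c2, Gpnmb, Dct and Csf3r. Alternatives tried were RLE and upper-quartile factors, a pseudocount of 0.1, no filter, a filter at 5 CPM, robust empirical Bayes, the replicate number as a block, each library left out, and the 4 libraries of lower depth. Some genes of the lists are counted but not reported by name here. Exon lengths and overlaps came from GENCODE M21 and promoters from RefSeq GRCm38.p6.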

Additional observations from a re-analysis of the deposited data

How the results depend on the processing

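Genes called numbered 681 of 12824 tested with the settings of the report, 2192 after RLE and 2080 with upper-quartile factors. With a filter at 5 CPM they numbered 316 of 9096 tested. They numbered 1940 after RLE with the replicate block and 2210 after RLE with robust empirical Bayes (chosen after seeing the data). With a library left out on either scale they numbered 170 to 5149. The share of calls that were higher was 34.1%, 42.0% after RLE, and with single libraries left out on the deposited scale it was 13.5% without BAFF tumour 1 and 89.6% without control tumour 1. Members called numbered 0, against 1 after RLE (Soat1), 1 after RLE with robust empirical Bayes (Soat1), 1 after RLE with the replicate block (Ch25h) and 0 to 7 with a library left out; Soat1 was missed after RLE with the replicate block (adjusted p = 0.0615). The replicate block alone lost the call of Apoc2 (adjusted p = 0.0594). The replicate number alone as a block called 608 genes and 0 members. Same-numbered libraries of the groups had deviations correlated at -0.0628, 0.0568 and -0.0372, and other pairs at -0.0756 to 0.106. With 3 libraries a group, these values cannot show whether same-numbered samples were handled together, and the labels do not tell. The block is given as an alternative only. Mylip was at -0.14 after RLE (also with the replicate block or robust empirical Bayes), at -0.18 with upper-quartile factors and at -0.35 to 0.53 with a library left out. Cyp27a1 was at -0.0041 after RLE (also with the block or robust empirical Bayes), at -0.049 with upper-quartile factors and at -0.45 to 0.74 with a library left out. With a library left out, Nr1h3 ran from -0.044 to 0.70, Abca1 from -0.66 to 0.17, Ncoa1 from -0.053 to 0.71, Hsd3b7 from -0.090 to 0.66 and Cyp39a1 from -0.10 to 0.45 (log2 fold changes). The cause of these changes was not tested. Of the member values under an alternative, 165 kept their direction and side of the threshold, 14 passed it and 19 changed sign. Among the 9 members, depth limits Ch25h most. Other named genes were as low or lower in control tumour 3, where 1 read was estimated at 0.212 CPM. Cyp39a1 had 0.423 CPM there, Soat2 0.847, Scd1 2.99 and Cd5l 3.18 CPM.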

Other observations

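Genes of sterol uptake, lysosomal release and storage were abundant and are read against the 5.31% (deposited scale) and 17.1% (RLE) of all genes called. Of 18 such genes 16 were tested, 0 passed on the deposited scale in limma (2 had an unadjusted p under 0.05, and the smallest adjusted p was that of Olr1, 0.249) and 1, Npc1, passed as higher after RLE, a call kept in 1 of the 6 fits that left out a library, the one without BAFF tumour 3, and missed in the 4 libraries of lower depth (adjusted p = 0.126). Npc1, which exports cholesterol from lysosomes, averaged 162 ± 7.2 CPM in BAFF tumours and 114 ± 39.1 CPM in controls (SD, n = 3 each; log2 fold change after RLE 0.31 ± 0.09, limma adjusted p = 0.0397). Olr1, a scavenger receptor for oxidised lipoprotein, averaged 17.0 ± 3.8 and 11.3 ± 6.9 CPM, Lipe, a cytosolic lipase of cholesteryl esters, 17.2 ± 2.0 and 11.7 ± 5.4 CPM, and Soat2, the second esterifying enzyme, 2.15 ± 0.82 and 1.08 ± 0.40 CPM; none of the 3 passed on either scale. The median log2 fold change of the list was 0.49 on the deposited scale and 0.23 after RLE.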
